A study of Rattus norvegicus with 24 samples.

Results

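The AP-1 family was followed here through 8 genes, Fos, Fosb, Fosl1, Fosl2, Jun, Junb, Jund and Atf3. They were found by gene name among the probes that are not controls, and they had 9 of the 41012 probes, 1 each except Jund, which had 2. All 8 genes passed the filter on dim probes, as did 23465 genes or transcripts in all. AP-1 is a pair of proteins of this family, joined along a leucine zipper, that binds short palindromic DNA sites and regulates transcription. Fos proteins pair with Jun proteins and not with each other, whereas Jun proteins also pair among themselves. In neurons Fos, Fosb, Junb and Atf3 are immediate early genes, whose mRNA is made within minutes of strong stimulation without new protein, while Jund mRNA is held at a steady high level in many tissues.

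The samples were brain regions of male Wistar rats 10 weeks old that received MK-801 at the high dose (0.16 mg per kg), MK-801 at the low dose (0.08 mg per kg) or saline, each into the peritoneal cavity, 40 min before the brain was removed. MK-801 blocks the open channel of the NMDA glutamate receptor. Of 9 rats, 6 were given MK-801 and 3 saline. The labels tie no array to an animal and do not say whether RNA was pooled. On each of 24 arrays MK-801 RNA in 1 dye met saline RNA of the same region in the other, and each of the 6 regions had 1 dye swap (2 arrays) per dose, so there were 12 swaps.

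A dye swap counted as 1 value. Each test had 6 values, 1 per region, and its p-value rests on how far the regions differ, with rat-to-rat spread left out. Since 3 rats in all received saline, the 2 doses share their saline group. In whole tissue, fewer cells of a type and less RNA per cell cannot be told apart. Each region lay on its own slide, and the arrays were scanned on 3 days: midbrain with amygdala, ventral striatum with cerebral cortex, and hippocampus with hypothalamus. Among saline levels, Th, the dopamine synthesis enzyme, led in midbrain by 4.69 log2 units, Drd1 in ventral striatum by 3.40 and the peptides Pmch and Oxt in hypothalamus by 3.14 and 1.55, while the peptide Avp was highest in amygdala, by 1.92 over hypothalamus. On single arrays 56.3% to 79.1% of the probe spots exceeded background clearly in both colours.

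The probes of 5 members read the following 60-base stretches, given because the results below are signals of these stretches and not of whole transcripts. The Fos stretch lies in the part of the coding sequence that encodes the leucine zipper. The Junb stretch ends with the stop codon, in capitals, and the Jund stretch is that of the dimmer of its 2 probes. On assembly rn3, named in the file headers, they lie at chr6:109564555-109564614 on the plus strand (Fos), chr1:78746783-78746842 on the minus strand (Fosb), chr19:24837607-24837666 on the plus strand (Junb) and chr16:19240331-19240390 on the minus strand (Jund). The files give no position for the Fosl2 probe.
Fos: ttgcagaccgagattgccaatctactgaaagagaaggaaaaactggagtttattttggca
Fosb: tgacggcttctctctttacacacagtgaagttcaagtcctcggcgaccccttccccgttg
Fosl2: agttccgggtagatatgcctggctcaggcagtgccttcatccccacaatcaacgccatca
Junb: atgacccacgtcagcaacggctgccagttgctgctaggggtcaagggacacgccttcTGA
Jund: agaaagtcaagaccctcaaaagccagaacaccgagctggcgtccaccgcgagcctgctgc
The probes of Jun, Fosl1 and Atf3 lie on chromosomes 5, 1 and 13 of the same assembly.

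After the high dose 3 of the 8 genes were called higher in the mean over the 6 regions, Fos, Junb and Atf3, and none lower. Of all genes tested at this dose 2.12% were called, in either direction, at an adjusted p under 0.05 (limma with Benjamini-Hochberg adjustment over 23332 genes). After the low dose 0 of the 8 were called, and of all genes 2.61%. Over both doses 1 member, Fos, rose, where 2.62% of all genes were called. When the doses were set against each other within each region, Fos, Jun, Junb and Atf3 were higher at the high dose, 4 of the 8, with 1.52% of all genes called. The median log2 ratio of the 8 genes was 0.20 at the high dose, 0.04 at the low dose, 0.12 over both and 0.15 for the high minus low difference, and the median over all genes was 0.00 in each. At the low dose none of the 8 genes had an unadjusted p under 0.05, the smallest being 0.109 for Junb.

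These counts depend on the processing. With the log ratios of the scanner software in place of the normexp and loess values, and with the authors' deposited value table, Fos was the only member called at the high dose and none was called for the difference between doses. A robust prior that follows intensity left 0 members called at the high dose, where Fos had an adjusted p of 0.0595 in limma. It left Jun and Junb for the difference. With single arrays and the array number as a replicate block, 4 members were called over both doses and 4 at the high dose. In each case they were Fos, Jun, Junb and Atf3. This fit counts the arrays of a swap as separate values, and it also called more of all genes. It called 1659 of 23446 genes over both doses and 688 of 23445 at the high dose. With 1 value per swap these counts were 604 of 23094 and 494 of 23332.

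**Figure D1:**
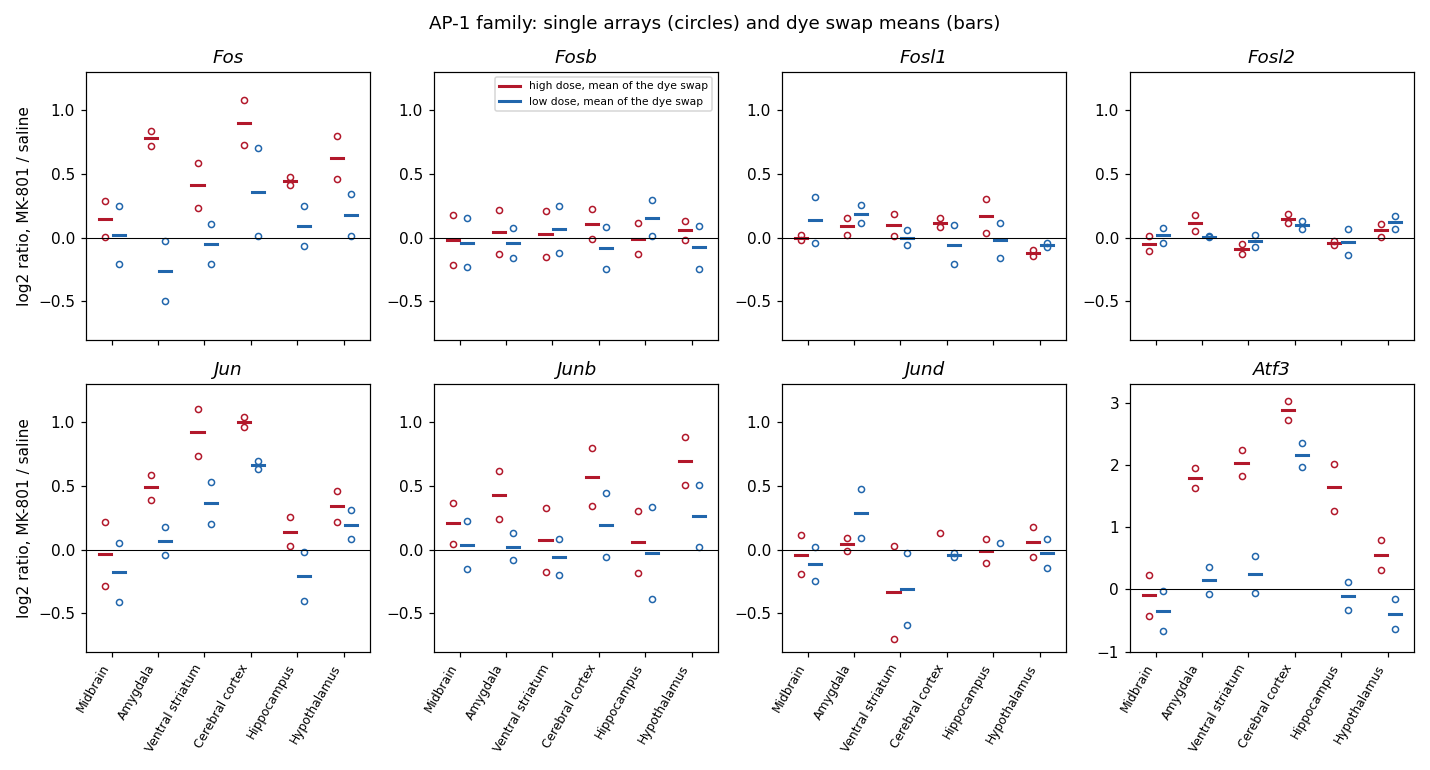
Log2 ratio of MK-801 to saline (y axis) for each gene in each region (x axis), with single arrays as circles and the mean of each dye swap as a bar, high dose in red left of low dose in blue. Atf3 has a wider y axis than the others. In Fos all 12 high-dose circles lie above 0, and in Atf3 the cortex circles lie at 1.97 or higher at both doses.

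Fos encodes c-Fos, the founding partner of Jun in AP-1. Its log2 ratio at the high dose was 0.15 in midbrain, 0.78 in amygdala, 0.41 in ventral striatum, 0.90 in cerebral cortex, 0.45 in hippocampus and 0.63 in hypothalamus. All 6 regions and all 12 arrays were above 0, with the cortex highest and the midbrain lowest. The mean was 0.55 ± 0.27 (SD, n = 6 regions), 1.47-fold, with an adjusted p of 0.00252 in limma and a 95% interval of 0.38 to 0.72. At the low dose the same regions gave 0.02, -0.26, -0.05, 0.36, 0.09 and 0.18. The regions thus lay on both sides of 0 at the low dose, 4 above and 2 below. The low-dose mean was 0.06 ± 0.21 (SD, n = 6), with a 95% interval of -0.08 to 0.19.

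The high minus low difference of Fos was positive in 6 of 6 regions, 0.50 ± 0.30 (SD, n = 6; adjusted p = 0.00708 in limma). The amygdala had the widest gap, 0.78 at the high dose against -0.26 at the low dose, and the midbrain the narrowest. Within the 3 scan days the mean ratio at the high dose was 0.46, 0.66 and 0.54, and the mean difference between doses was 0.58, 0.50 and 0.40. Leaving out each region in turn kept Fos called at the high dose, with means of 0.48 to 0.63. Over both doses Fos averaged 0.30 ± 0.19 (SD, n = 6; adjusted p = 0.0136 in limma).

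In signal rather than ratio, the log2 intensity of Fos in cortex was 11.14 with MK-801 against 10.23 with saline on the high-dose arrays, and 10.09 against 9.73 on the low-dose arrays. In hypothalamus it was 10.56 with MK-801 against 9.94 with saline at the high dose, and 8.60 against 8.42 at the low dose. Thus both colours of the high-dose hypothalamus arrays were brighter for Fos than both colours of the low-dose arrays. The Fos saline level itself was 1.52 higher on the high-dose than on the low-dose hypothalamus arrays, and only 6 of 22639 genes differed by more there. The labels do not say whether the same saline RNA went onto both pairs of arrays, and the source of this gap was not tested. Without hypothalamus Fos averaged 0.54 at the high dose (adjusted p = 0.0131 in limma) and 0.51 for the difference between doses (adjusted p = 0.0301).

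**Figure D2:**
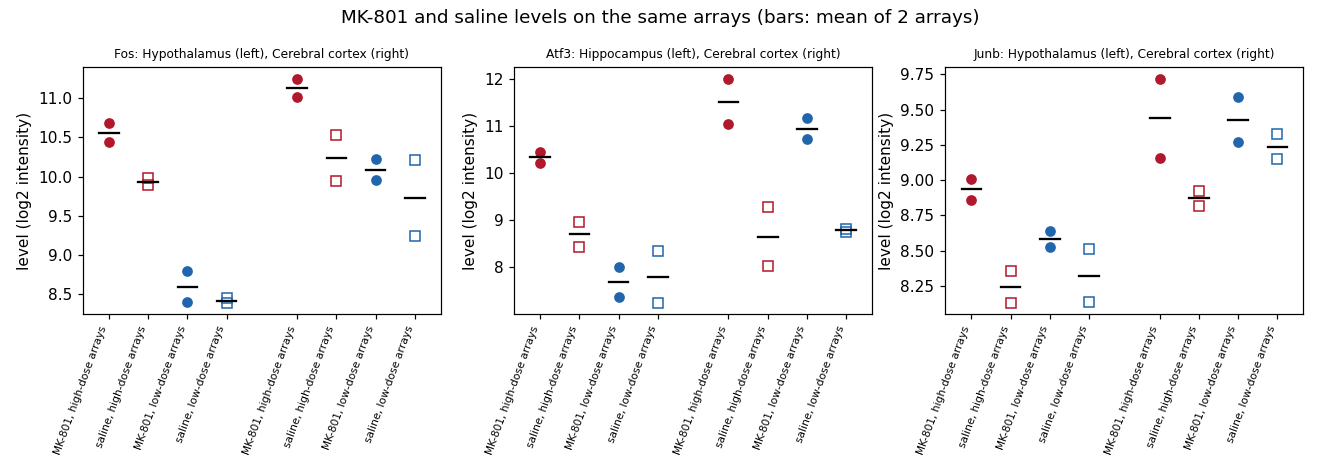
Level in log2 intensity (y axis) of Fos, Atf3 and Junb on single arrays, MK-801 as filled circles and saline as open squares, for 2 regions per gene, with bars at the mean of 2 arrays and high-dose arrays in red. The Fos saline squares of hypothalamus sit at 9.94 on high-dose arrays and 8.42 on low-dose arrays.

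The RNA ratios of the other Fos genes stayed close to 0. Fosb, which gives full-length FosB and the shorter delta-FosB, had ratios between -0.02 and 0.11 at the high dose and between -0.08 and 0.16 at the low dose. Its high-dose mean was 0.03 ± 0.05 (SD, n = 6), with a 95% interval of -0.02 to 0.09. Fosl2, or Fra-2, ran from -0.09 to 0.15 at the high dose, with a mean of 0.02 ± 0.10 (SD, n = 6) and an interval of -0.05 to 0.10. Neither gene passed the test in any of the 4 comparisons.

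Fosl1, or Fra-1, was the member nearest to background, well above it on 19 of 24 arrays in the MK-801 colour and on 18 in the saline colour. In amygdala at the low dose it was not well above background on either array in either colour, so that ratio (0.19) carries no measured level. Its high-dose mean was 0.06 ± 0.10 (SD, n = 6), with an interval of -0.02 to 0.14. None of the 4 comparisons called it.

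Jun encodes c-Jun, the partner whose activity is raised by the JNK kinases. Its probe was spotted 10 times on each array. At the high dose the log2 ratio was -0.03 in midbrain, 0.49 in amygdala, 0.92 in ventral striatum, 1.00 in cerebral cortex, 0.14 in hippocampus and 0.34 in hypothalamus. Cortex and ventral striatum stood highest, and midbrain was the only region below 0. The mean was 0.48 ± 0.42 (SD, n = 6), and the test was not passed (adjusted p = 0.062 in limma), although 11 of 12 arrays were above 0. With the array number as a replicate block, which counts the 2 arrays of a swap as separate values, the adjusted p was 0.00577. With scan day as a block it was 0.00219, and without midbrain the mean was 0.58 with an adjusted p of 0.014. Jun stayed uncalled at the high dose with the scanner ratios, the value table, median centring, offset 10 and the robust prior. Leaving out any other region also left it uncalled, with an adjusted p of up to 0.194 in limma.

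At the low dose Jun gave -0.18, 0.07, 0.36, 0.66, -0.21 and 0.20 in the same regions, again with cortex and ventral striatum on top. The difference between doses was positive in 6 of 6 regions, 0.33 ± 0.16 (SD, n = 6), and passed the test (adjusted p = 0.00377 in limma). It was thus the dose difference, and not either dose alone, that was called for Jun. Within the 3 scan days Jun averaged 0.23, 0.96 and 0.24 at the high dose and the dose difference 0.28, 0.45 and 0.25. The second scan day holds ventral striatum and cortex, so for Jun region and scan day cannot be told apart.

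Junb encodes JunB, a Jun protein that in many promoters acts less strongly than c-Jun. At the high dose its ratio was 0.21 in midbrain, 0.43 in amygdala, 0.08 in ventral striatum, 0.57 in cerebral cortex, 0.06 in hippocampus and 0.69 in hypothalamus. All 6 regions were above 0, and hypothalamus was highest, unlike the other members called, in which cortex was highest. The mean was 0.34 ± 0.26 (SD, n = 6), 1.26-fold (adjusted p = 0.0413 in limma), and the difference between doses was 0.27 ± 0.15 (SD, n = 6; adjusted p = 0.0119), positive in 6 of 6 regions. At the low dose the ratios ran from -0.06 to 0.26, with a mean of 0.07 ± 0.13 (SD, n = 6). Within the 3 scan days Junb averaged 0.32, 0.32 and 0.37 at the high dose. The high-dose call was lost without amygdala (adjusted p = 0.139), without cortex (0.15) or without hypothalamus (0.104). It was also lost with median centring in place of loess (0.213) and with scan day as a block (0.0871). The dose difference was not called either without amygdala (adjusted p = 0.0506 in limma), cortex (0.0504) or hypothalamus (0.0574). Nor was that difference called with median centring (0.392), the scanner ratios (0.0577) or the value table (0.0606).

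Jund encodes JunD, the Jun protein held at a steady level in many cells. The ratio of its brighter probe at the high dose was -0.04 in midbrain, 0.04 in amygdala, -0.33 in ventral striatum, -0.01 in hippocampus and 0.06 in hypothalamus, and the cortex had no swap value because 1 spot was flagged as an outlier. The ventral striatum stood apart below the rest, but its 2 arrays gave -0.70 with MK-801 in Cy5 and 0.03 with MK-801 in Cy3. The mean was -0.06 ± 0.16 (SD, n = 5), with an interval of -0.17 to 0.06. At the low dose, where hippocampus was missing for the same reason, the mean was -0.04 ± 0.21 (SD, n = 5). The dimmer Jund probe, shown above, gave 0.08 ± 0.04 (SD, n = 6) at the high dose, with ventral striatum at 0.02, so the 2 probes disagreed in sign and neither passed the test.

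Atf3 is a stress-induced factor of the related ATF group that pairs with Jun proteins and, alone, represses transcription. It had the largest ratios of the family. At the high dose they were -0.10 in midbrain, 1.79 in amygdala, 2.03 in ventral striatum, 2.87 in cerebral cortex, 1.64 in hippocampus and 0.55 in hypothalamus. In 5 of 6 regions Atf3 was higher with MK-801, and in cortex it was 7.32-fold higher. The mean was 1.46 ± 1.07 (SD, n = 6), 2.76-fold, with a 95% interval of 0.83 to 2.10 and an adjusted p of 0.0237 in limma. Only 2 of 23332 genes had a larger mean ratio at this dose.

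At the low dose Atf3 gave -0.35, 0.14, 0.24, 2.16, -0.10 and -0.39 in the same order of regions, so that cortex stood apart, the next highest being 0.24. The mean of 0.28 ± 0.95 (SD, n = 6) was not called (adjusted p = 0.704 in limma), and without cortex it was -0.09. In log2 intensity the cortex had 11.53 with MK-801 against 8.66 with saline at the high dose and 10.95 against 8.79 at the low dose. The 2 arrays of the low-dose cortex swap gave 2.35 and 1.97, with the dyes exchanged. The low-dose cortex value is thus seen in both dye orientations.

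The high minus low difference of Atf3 was 1.18 ± 0.64 (SD, n = 6), positive in 6 of 6 regions (adjusted p = 0.00228 in limma), and no other of 23094 genes had a larger mean difference. It was narrowest in midbrain, -0.10 at the high dose against -0.35 at the low dose. The high-dose call was lost without amygdala (adjusted p = 0.0877), ventral striatum (0.0917), cortex (0.0605) or hippocampus (0.0687), while the dose difference was called without any 1 region. In hippocampus the Atf3 level was 10.34 with MK-801 against 8.70 with saline on the high-dose arrays, and 7.69 against 7.80 on the low-dose arrays, so there too the saline level was higher on the high-dose arrays, by 0.91, a gap exceeded by 492 of 22518 genes. Within the 3 scan days Atf3 averaged 0.85, 2.45 and 1.09 at the high dose.

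**Figure D3:**
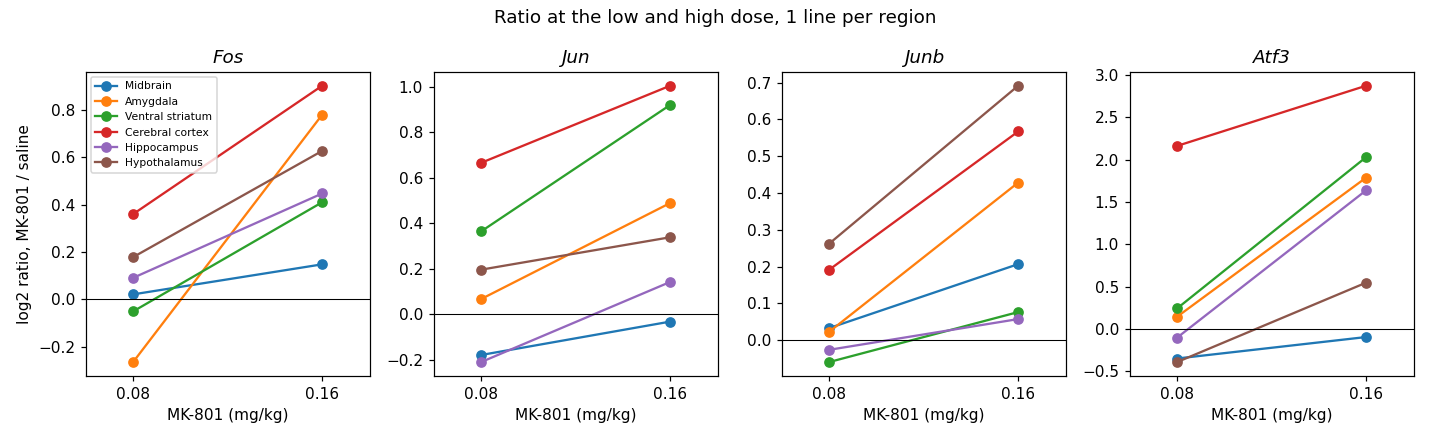
Log2 ratio of MK-801 to saline (y axis) at 0.08 and 0.16 mg per kg (x axis) for the 4 genes whose dose difference was called, with 1 line per region and a separate y axis per gene. Every line climbs toward the high dose, and cortex is the top line in Fos, Jun and Atf3.

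The family members did not follow 1 regional order. For Atf3 the high-dose order was cortex, ventral striatum, amygdala, hippocampus, hypothalamus and midbrain, and Jun shared its first 3 and its last. For Fos, ventral striatum came next to last, and for Junb hypothalamus came first and hippocampus last. Over the 12 region and dose values Pearson's r was 0.86 between Jun and Atf3, 0.79 between Fos and Junb, 0.76 between Fos and Atf3 and 0.38 between Junb and Atf3. These correlations are descriptions, since the points share rats and slides and may share saline RNA.

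The dye moved several members by amounts near their ratios. Ratios read with MK-801 in Cy5 exceeded those with MK-801 in Cy3 by 0.50 on average for Atf3, 0.31 for Fosb and 0.27 for Jun, and fell below them by 0.43 for Junb and 0.33 for Fos, where the median size over all genes was 0.15. Both arrays of a swap were above 0 in 8 of 12 swaps for Fos and for Jun, in 6 for Atf3, in 5 for Junb and in 1 for Fosb. Both were below 0 in 1 swap for Fos, 1 for Jun, 2 for Atf3 and none for Junb and Fosb. For Junb the other 7 swaps were split, so its single-array values change sign with the dye in most swaps.

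**Figure D4:**
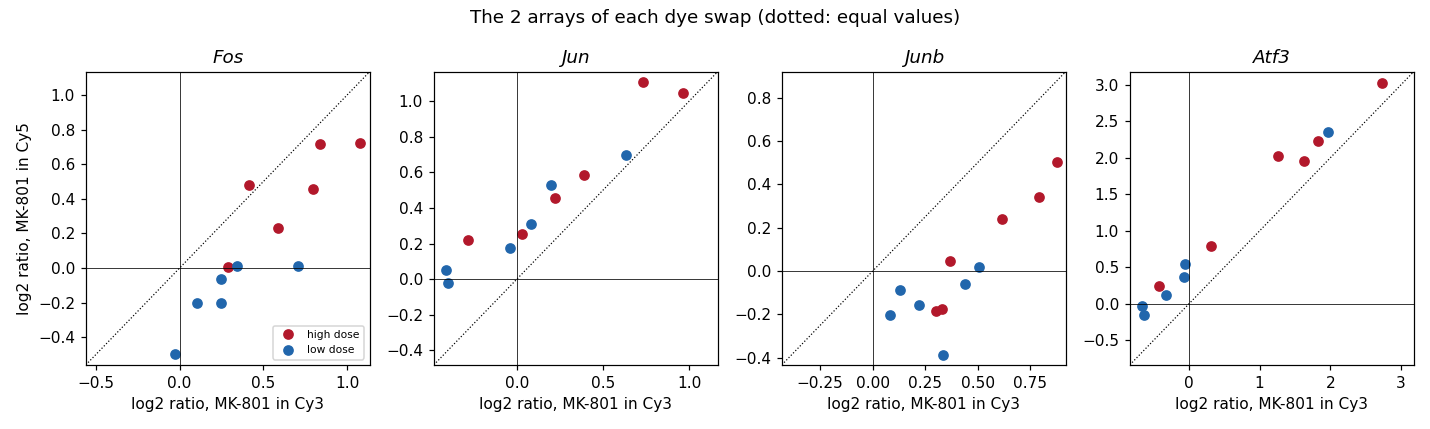
Log2 ratio with MK-801 in Cy5 (y axis) against that with MK-801 in Cy3 (x axis) for the 12 dye swaps, high dose in red and low dose in blue, with equal values on the dotted line. Atf3 and Jun points lie above the line, by 0.50 and 0.27 on average, and nearly all Fos and Junb points lie below it.

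In saline brain the family members differed by region in their own ways, each on its own probe scale. Junb averaged 9.46 log2 units in hippocampus, 9.06 in cortex, 8.73 in ventral striatum, 8.49 in amygdala, 8.28 in hypothalamus and 7.24 in midbrain, over 4 arrays each. Its midbrain arrays all lay below those of hypothalamus, with a gap of 1.04 between means, whereas each other pair of neighbours overlapped. Fos averaged 9.98 in cortex, 9.18 in hypothalamus, 9.11 in amygdala, 8.67 in midbrain, 8.46 in ventral striatum and 8.23 in hippocampus, and every pair of neighbours in that order overlapped.

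Jun was highest in hippocampus (13.39) and amygdala (13.34), which overlapped, and lowest in ventral striatum (12.05), whose arrays all lay below those of midbrain (12.54). Without scaling between arrays ventral striatum stayed lowest at 12.10, but amygdala had 13.27, hippocampus 12.98 and midbrain 12.98, so the upper part of that order depends on the scaling. Fosb was highest in hippocampus (9.07) and hypothalamus (8.77) and lowest in amygdala (7.70). Fosl2 was also highest in hippocampus (8.11), and lowest in midbrain (6.97). Atf3 varied little, between 8.25 in hippocampus and 8.92 in midbrain, with all neighbours overlapping. Fosl1 ran from 6.65 in amygdala to 7.03 in hippocampus. Without scaling between arrays Fosl2 was lowest in hypothalamus (6.90) and Fosl1 highest in midbrain (7.16). The brighter Jund probe ran from 13.60 in midbrain to 14.29 in ventral striatum, but without scaling between arrays it was lowest in hippocampus (13.31) and highest in cortex (14.37). The dimmer Jund probe was highest in hypothalamus (9.51) and lowest in midbrain (8.81), so the order of regions for Jund depends on the probe and the scaling.

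**Figure D5:**
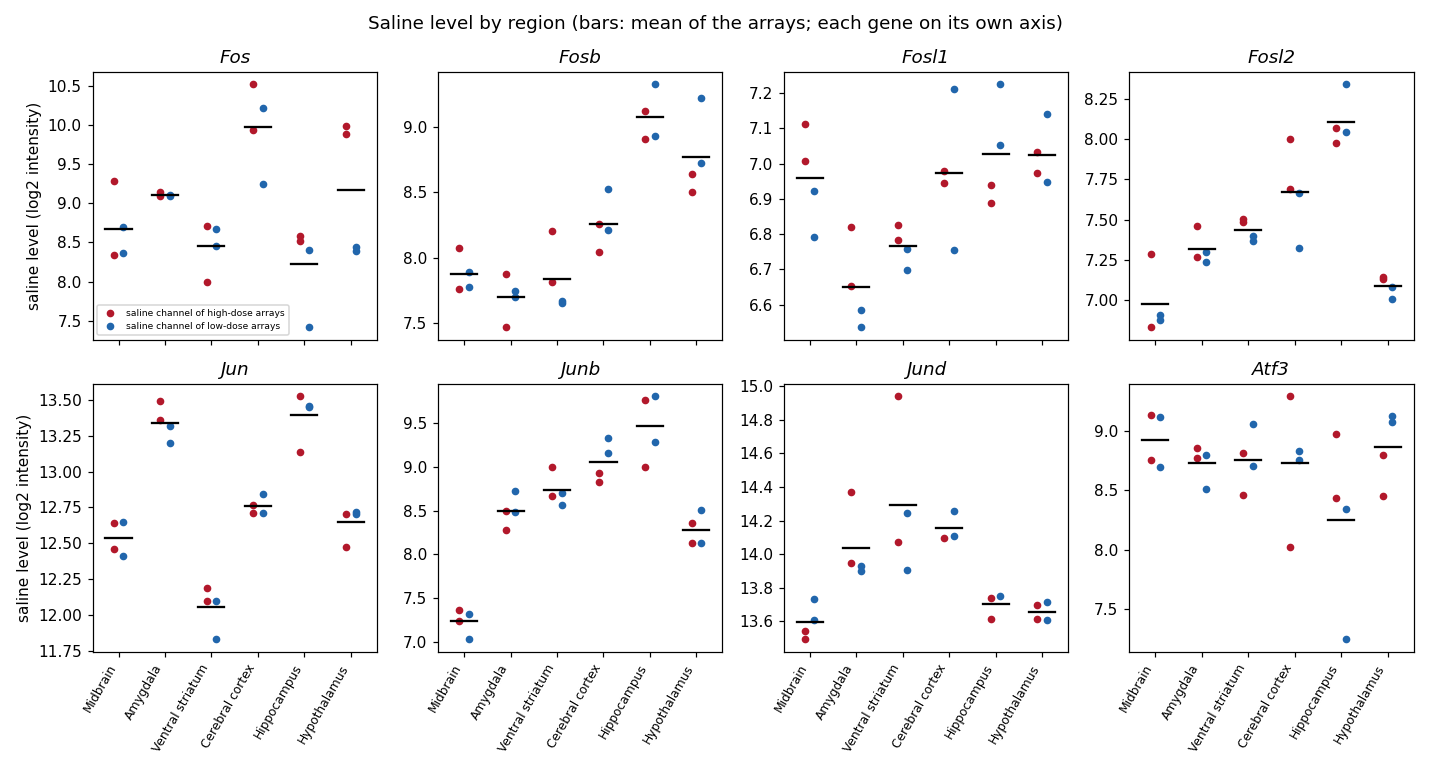
Saline level in log2 intensity (y axis, scaled separately for each gene) by region (x axis), with single arrays as points, red for saline on high-dose arrays and blue for saline on low-dose arrays, and bars at the mean. Junb in midbrain (7.24) lies apart below the other regions, and the Fos points of hypothalamus fall into a red pair and a blue pair.

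Around the family, few genes of the AP-1 pathway were called. Of all genes 2.12% were called at the high dose, 2.61% at the low dose, 2.62% over both and 1.52% for the difference, so in lists this short a count of 0 or 1 is near the background. None of 12 measured AP-1 partners, such as other ATF and Maf proteins, and none of 12 measured factors that act at promoters of AP-1 genes was called in any of the 4 comparisons. Of 19 measured MAP kinase genes 1 was called, Mapk14, which encodes the p38 alpha kinase, lower by -0.17 ± 0.05 (SD, n = 6; adjusted p = 0.00377 in limma) at the high dose, by -0.10 over both doses and by -0.15 for the difference between doses. Of 4 measured genes for turnover of AP-1 mRNA and protein, Zfp36l1, a protein that directs decay of AU-rich mRNAs, rose by 0.17 ± 0.07 (SD, n = 6; adjusted p = 0.0137) at the high dose and by 0.12 over both. Of 11 measured AP-1 target genes, Ccl2, a chemokine, was higher at the high than at the low dose by 0.36 ± 0.26 (SD, n = 6; adjusted p = 0.0248). Ccnd1, or cyclin D1, fell by 0.14 at the low dose (adjusted p = 0.0287) and by 0.12 over both doses (0.0234). The medians of these 5 lists lay between -0.03 and 0.05 in every comparison.

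The genes most alike in pattern were taken from 89 genes whose 12 region and dose values spanned at least 1 log2 unit. For Atf3 they were Apold1 (r = 0.99), Klf2 (0.98), Btg2 (0.96), Bcl6b (0.96) and Depp1 (0.95). For Jun they were Btg2 (0.96), Ccn1 (0.93), Ch25h (0.88), Cebpd (0.87) and Klf2 (0.86). For Fos they were Dusp1 (0.83), Bcl6b (0.81), Sik1 (0.80), Hbb (0.78) and Depp1 (0.77). The 12 values share rats and slides, and perhaps saline RNA, so r only describes these arrays.

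Markers of blood moved with dose as well. All 3 measured of 4 red blood cell genes rose at the high dose, Hbb by 0.33, Alas2 by 0.30 and Slc4a1 by 0.18. At the low dose Hbb fell by 0.54 and Alas2 by 0.31, while Slc4a1 was not called (-0.09, adjusted p = 0.375 in limma). Of all genes 2.12% were called at the high and 2.61% at the low dose. All 3 were higher at the high than at the low dose, with a median difference of 0.61, where 1.52% of all genes were called. Their median was above 0 in each region at the high dose (0.13 to 0.41) and below 0 in each at the low dose (-0.57 to -0.12). The summed linear signal of the 3 genes per region was 2348 to 4923 with MK-801 against 1707 to 4457 with saline on high-dose arrays, and 1219 to 2220 against 1681 to 3049 on low-dose arrays, and none of the 3 was below background. Their part in the dose differences of Fos, Jun, Junb and Atf3 was not tested.

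Microglia markers also moved with dose, the other way. Of 10 markers 4 rose at the low dose, C1qc by 0.22, P2ry12 by 0.17, C1qa by 0.15 and C1qb by 0.11, each in 6 of 6 regions, and none fell, where 2.61% of all genes were called. At the high dose 0 of 10 were called. P2ry12 (-0.23), C1qc (-0.15) and C1qa (-0.14) were lower at the high than at the low dose, a difference called in 1.52% of all genes. The list's median ran from -0.06 to 0.08 over the regions at the high dose and from 0.05 to 0.20 at the low dose. Its summed signal was 23942 to 36811 with MK-801 against 25109 to 38251 with saline on high-dose arrays, and 23961 to 40871 against 22487 to 37145 on low-dose arrays. Single genes of other lists moved the same way at both doses. Aspa of oligodendrocytes rose by 0.31 at the high and 0.26 at the low dose, and Slc2a1 of endothelium by 0.13 and 0.12. Sox9 of astrocytes fell by 0.34 and 0.24, and Kdr of endothelium by 0.18 and 0.30. Of 10 oligodendrocyte markers 1 rose at the high and 2 at the low dose, with medians of 0.05 and 0.13. Of 10 astrocyte markers 1 rose and 1 fell at each dose, with medians of -0.01 and 0.02. Of 11 measured endothelial markers 1 rose and 1 fell at the high dose, and 1 rose and 2 fell at the low. The endothelial medians were -0.03 and -0.02. Of all genes 2.12% and 2.61% were called at these doses. The part of these markers in the family's ratios was not tested.

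Choroid plexus and meningeal markers differed between MK-801 and saline in several regions. In amygdala at the high dose the median of 6 measured of 10 choroid plexus markers was 0.90, and their summed signal 100330 with MK-801 against 40649 with saline; at the low dose the median was 0.20. The choroid plexus median was -0.31 at the high and -0.51 at the low dose in hippocampus, and -0.50 and 0.07 in hypothalamus. In cortex at the low dose the median of 11 measured of 12 meningeal markers was -0.94, against -0.001 at the high dose. The meningeal median was -0.61 at the high and -0.51 at the low dose in hippocampus, and 0.53 and -0.27 in midbrain. Over the 6 regions the meningeal list had 0 genes called at the high dose and 1 of 11 at the low dose, Slc6a13, which fell by 0.31, where 2.12% and 2.61% of all genes were called at these doses. The part of these markers in the regional values of the family was not tested.

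Promoters of 5 members, Fosb, Fosl1, Fosl2, Junb and Jund, were matched in the RefSeq table of assembly GRCr8 (250 bases before to 50 after the annotated start). Those of Junb, which rose at the high dose, and Jund, which was not called, are given to show the letters at the starts of these close relatives, Junb at chr19:40080876-40081175 on the plus strand and Jund at chr16:18769722-18770021 on the minus strand. Capitals mark TGACGTCA (the CRE), TGACG (its first 5 letters, which lie inside it too) and TATAAA, on either strand.
Junb: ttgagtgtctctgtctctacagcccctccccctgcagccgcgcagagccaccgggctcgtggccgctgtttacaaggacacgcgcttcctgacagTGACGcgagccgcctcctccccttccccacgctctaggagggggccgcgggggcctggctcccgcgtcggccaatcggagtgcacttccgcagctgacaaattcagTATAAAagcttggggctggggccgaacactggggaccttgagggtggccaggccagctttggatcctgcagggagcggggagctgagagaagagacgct
Jund: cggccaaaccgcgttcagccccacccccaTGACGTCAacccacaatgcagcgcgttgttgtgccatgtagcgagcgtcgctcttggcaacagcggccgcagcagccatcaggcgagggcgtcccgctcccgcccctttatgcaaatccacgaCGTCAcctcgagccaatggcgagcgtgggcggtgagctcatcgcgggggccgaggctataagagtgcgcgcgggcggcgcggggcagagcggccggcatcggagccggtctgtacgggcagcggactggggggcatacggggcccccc
The CRE was present in Jund alone of the 5, and in 1.83% of all 33469 promoters of this length. TGACG was present in Fosl1, Junb and Jund (21.2% of all promoters) and TATAAA in Fosb and Junb (14.2%). The AP-1 site itself, TGANTCA, was in none of the 5 (7.33% of all promoters), nor was the CArG box bound by serum response factor (1.64%). These are matches of letters within the windows only.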

How the data were processed

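The analysis started from 24 deposited scanner files, 1 per array, made with Agilent Feature Extraction 9.5.3.1, per the submitters' processing notes. Per the file headers they hold mean and background fluorescence intensity per colour, spot quality flags and the software's log10 ratio. The authors' deposited values of the series are log10 ratios of Cy5 to Cy3 that matched the processed signals within 0.00413 and were not turned for the dye swaps.

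Intensities were corrected with normexp (offset 50) and loess in R 4.3.3 with limma 3.58.1 and statmod 1.5.0. Control spots and outlier-flagged spots were dropped, replicate spots averaged, and ratios turned to log2 of MK-801 over saline, computed from the deposited intensities. A probe was kept if both colours were well above background on 12 or more of 24 arrays, and a gene was read from its brightest probe. Levels per colour were scaled between arrays by Aquantile. Probes were named by accession, symbol or synonym in the RefSeq gene table of GRCr8, used for names only. Figures and sequences used Python 3.11.15, pandas 2.3.3 and matplotlib 3.10.9.

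Each comparison was fitted with limma (lmFit, eBayes, against 0) to the regional values, at least 4 of 6, and Benjamini-Hochberg adjustment ran over every gene tested. The test was checked on simulated data. Intervals are limma's, without adjustment. The number of arrays limits the precision. Alternatives were the scanner ratios, the value table, median centring, offset 10, other filters and the mean of probes. Others were an intensity trend with a robust prior, scan day and array number as blocks, and leaving out each region or array number.

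The array numbers carry the dye orientation. Same-numbered arrays of different regions deviated together, with correlations across genes of 0.52 to 0.74 in all 30 pairs of regions, so the numbers were taken to pair the arrays by dye.

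The members, gene lists and tests were chosen with earlier results of these data known. Named genes were all members, the called genes of each pathway list (at most 4) and, for the 3 members with the largest high-dose ratios, the 5 genes with values on all arrays and the highest r.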

Additional observations from a re-analysis of the deposited data

Results flagged for a closer look

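In 4 genes the response at the high dose differed from that at the low dose by a test of the difference itself. The high minus low difference was 0.50 for Fos, 0.33 for Jun, 0.27 for Junb and 1.18 for Atf3 on the log2 scale. No cause was tested.

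Single regions lay far from the others in 2 cases, by a test that picks out about 1 in 20 groups by chance. Across 8 genes and 2 doses, a few such cases can arise by chance alone. The low-dose ratio of Atf3 in cerebral cortex was 2.16, with the next highest region at 0.24. The high-dose ratio of Jund in ventral striatum was -0.33, with the next lowest region at -0.04, while the other Jund probe gave 0.02 there. The 2 arrays behind the -0.33 gave -0.70 and 0.03.

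Fosl1 was higher with MK-801 on all 4 arrays of amygdala and lower on all 4 of hypothalamus, a difference of 0.23 between the regional means over both doses. That difference was not tested, and Fosl1 was near background in amygdala.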

How the results depend on the processing

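Members called were 1 over both doses, 3 at the high dose, 0 at the low dose and 4 for the high minus low difference. With the scanner ratios and with the value table they were 1 at the high dose and 0 for the difference. Median centring left 2 for the difference, Atf3 and Fos. The intensity trend with a robust prior left 0 over both doses, 0 at the high dose and 2 for the difference. Scan day as a block gave 2 over both doses, Fos and Jun, and at the high dose still 3, with Jun in place of Junb. The replicate block counts the 2 arrays of a swap as separate values. It gave 4 over both doses and changed no count of members by over 1.5 times elsewhere. A replicate block without pairing arrays by region, added after seeing the data, left 1 for the difference, Fos. Leaving out 1 region gave 1 to 2 over both doses (2 without midbrain, where Atf3 averaged 1.09), 1 to 4 at the high dose (1 without amygdala or cortex, 4 without midbrain), 0 to 0 at the low dose and 3 to 4 for the difference. Leaving out 1 array number leaves a single dye orientation in the swaps of 1 dose, so the dye offset does not cancel there. Members called were then 2 to 4 over both doses and 4 to 4 at the high dose. At the low dose they were 3 to 3, and for the difference 4 to 4. Of 23196 or more genes tested, 3690 to 4753, 6629 to 7533, 7256 to 8360 and 5370 to 7442 were called in that order. At the low dose Fosb was called lower and Junb higher without array number 3, and the reverse without array number 4. The genes behind equal counts also changed. For the difference Fosb was called in place of Junb without array number 2 or 3. At the high dose Junb and Jund joined Atf3 and Fos without array number 1, and Fosb and Jun did so without array number 2. The cause of these shifts was not tested.

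Direction changed in values near 0. Using only probes above background on all 24 arrays, which replaces the Jund probe by the dimmer one, turned Jund to 0.036 over both doses, 0.077 at the high dose and 0.081 for the difference, and the mean of probes turned it to 0.022 at the high dose and 0.053 for the difference. Fosb became -0.010 at the high dose, 0.019 at the low dose and -0.029 for the difference with median centring, and 0.024 at the low dose with the scanner ratios and 0.023 with the value table. Fosl2 became 0.033 for the difference with both. Leaving out 1 region gave ranges across 0 at the high dose for Fosl2 (-0.00084 to 0.046) and Jund (-0.086 to 0.013), at the low dose for Fos (-0.0047 to 0.12), Fosb (-0.034 to 0.013), Jund (-0.12 to 0.025) and Atf3 (-0.092 without cortex to 0.42; 0.033 to 0.53 without 1 array number), and for the difference for Fosl1 (-0.0065 to 0.060) and Fosl2 (-0.029 to 0.0059). Without 1 array number the ranges crossed 0 over both doses for Fosb (-0.065 to 0.097) and Jund (-0.14 to 0.034), at the high dose for Fosb (-0.11 to 0.18), Fosl1 (-0.0025 to 0.12) and Jund (-0.21 to 0.10), at the low dose for Fos (-0.16 to 0.27), Fosb (-0.16 to 0.16), Fosl1 (-0.049 to 0.11), Junb (-0.14 to 0.29) and Jund (-0.11 to 0.034), and for the difference for Fosb (-0.12 to 0.20), Fosl1 (-0.054 to 0.11), Fosl2 (-0.019 to 0.0065) and Jund (-0.20 to 0.15). Fos, Jun, Junb and Atf3 kept their direction over both doses, at the high dose and for the difference under every alternative run.

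All genes called were 604 over both doses, 494 at the high dose, 608 at the low dose and 351 for the difference. In that order they were 340, 262, 327 and 197 with the scanner ratios, 326, 261, 318 and 194 with the value table, and 332, 134, 356 and 98 with median centring. The higher calls were 327 of 604 over both doses and 145 of 332 with median centring. The replicate block gave 1659 over both doses and 588 for the difference. Without 1 region the lowest counts were 365, 293, 396 and 237, and without 1 array number they were 3690 to 4753, 6629 to 7533, 7256 to 8360 and 5370 to 7442. Saline levels moved by more than the spread between arrays in 17 of 48 cases without scaling between arrays.

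The values rest on 1 dye swap per region and dose. Signal limits Fosl1 most. Region, slide and scan day overlap in part, and no array is tied to a rat.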

Other observations

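The saline level of Fos differed by 1.52 log2 units between the high-dose and the low-dose arrays of hypothalamus. No other member had a measured gap over 1 in any region. In hypothalamus 177 of 22639 genes differed by over 1, which is 0.782%, and the share ran from 0.0875% in amygdala to 1.47% in ventral striatum.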
